A study of Mus musculus with 2 samples.

Results

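Tyro3, Mertk, Elmo1 and Bai1 (now Adgrb1) encode parts of the machinery by which one cell recognises and swallows a dying neighbour. On the arrays they were chosen by name, as all non-control probes whose gene name in the files is one of these 4. This gave 7 probes of 15208 for 4 of the 9441 genes compared, namely 3 for Tyro3, 2 for Bai1 and 1 each for Mertk and Elmo1. The busulphan preparation held testicular Sertoli cells of male Swiss mice, adults of 3 months, collected 1 month after busulphan at 25 mg/kg body weight. The control preparation held Sertoli cells isolated the same way from untreated male Swiss mice of the same age. Neither was cultured, and the number of mice behind each preparation is not given in the sources used here. A single-colour array was run for each preparation (n = 1 array per group), which leaves every difference without a replicate and without a p-value. Busulphan is an alkylating drug widely used to deplete germ cells, and the series compared the Sertoli cell profile after the drug with that of untreated mice.

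Sertoli cells are the epithelial nurse cells of the seminiferous tubule, and they take up the many germ cells that die during normal sperm production as well as the residual cytoplasm shed by spermatids. A dying cell shows phosphatidylserine on its surface. TYRO3 and MERTK are receptor tyrosine kinases that read this lipid through the bridging proteins GAS6 and protein S, and with AXL they form the TAM family. In mice, loss of all TAM receptors together leads to germ cell degeneration. BAI1 is an adhesion G-protein-coupled receptor that can bind phosphatidylserine itself and recruits the adaptor ELMO1. ELMO1 works with DOCK proteins as an exchange factor for the GTPase RAC, which drives the membrane around the corpse. In mice without Elmo1, dead germ cells and multinucleate cells accumulate in the tubules.

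The 7 probes are oligonucleotides of 60 bases that match exon sequence of their transcripts. Coordinates are those of the files, on mouse build mm9. The Tyro3 probes start at bases 465, 3184 and 3422 of the transcript and lie on chromosome 2 at 119627379 to 119627438, 119643036 to 119643095 and 119643274 to 119643333. The Mertk probe starts at base 3497 and lies on chromosome 2 at 128627867 to 128627926. The Elmo1 probe starts at base 1866. It covers chromosome 13 from 20681555 to 20692067, a span of 10513 bases for a probe of 60, so it crosses at least 1 intron. The Bai1 probes start at bases 5912 and 6071, on chromosome 15 at 74419580 to 74419639 and 74419739 to 74419798. Coding and untranslated parts are not distinguished in the files.

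The sequences of a pair of probes are shown. One is the Tyro3 probe nearest the start of its transcript, whose value below is a bound, and the other is the only Elmo1 probe, on which the value of that gene rests. They are written in lower case because no base is singled out.
Tyro3 probe at base 465: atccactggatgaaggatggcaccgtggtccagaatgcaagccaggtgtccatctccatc
Elmo1 probe at base 1866: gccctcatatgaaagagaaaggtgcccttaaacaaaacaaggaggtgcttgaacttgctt

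Tyro3 and Mertk, the tyrosine kinase receptors, were both much higher in the busulphan library. The brightest Tyro3 probe, at base 3422, had a processed signal of 4912 ± 491 in the busulphan library against 338 ± 33.8 in the control library, where ± is the scanner software's own spot error. Its neighbour at base 3184 had 3230 ± 323 in the busulphan library and 186 ± 18.7 in the control library. On the log2 scale, after division of each array by its 75th percentile, these probes were higher by 4.07 (16.8-fold) and 4.33 (20.0-fold), with a software error of 0.20 each. Both distances are many times the spot error, which is the only error the files hold.

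The Tyro3 probe at base 465, whose sequence is given above, had a low signal on both arrays and was well above background on the busulphan array only. Its signal was 44.0 ± 4.56 in the busulphan library and 2.98 ± 1.501 in the control library, where it was not well above background. It therefore carries only a bound. The bound sets the busulphan value against the lowest signal among control-array probes well above background, 7.50, and reads at least 6.78-fold higher. All 3 Tyro3 probes were higher in the busulphan library. Of 2321 genes with 2 or more probes measured on both arrays, 26.8% had probes of opposite sign, and the median range between a gene's probes was 0.74 log2 units. The range between the bright Tyro3 probes was 0.26.

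Mertk was read by its single probe at 990 ± 99.0 in the busulphan library and 72.3 ± 7.42 in the control library. The log2 difference was 3.98 (15.8-fold), with a software error of 0.21. Its ratio differed from that of Tyro3 by less than the error of either spot. A bright probe is not comparable in level with another gene's probe, so the receptors are not ranked by abundance.

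**Figure D1:**
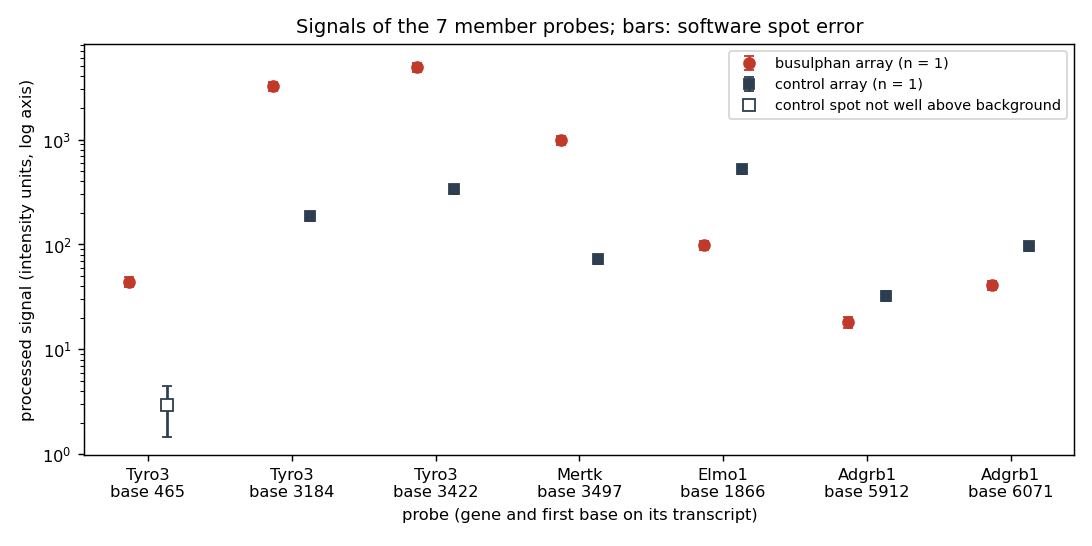
Processed signal (intensity units, log axis) of each of the 7 probes on the busulphan array (red circles) and the control array (dark squares), with the software spot error as bars and n = 1 array per group. The Tyro3 and Mertk probes are brighter on the busulphan array and the Elmo1 and Adgrb1 probes are brighter on the control array, and the open square marks the Tyro3 spot at 2.98 that was not well above background.

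The other genes of the TAM system had ratios in both directions. All 6 listed relatives and ligands were compared, with 2 higher by 2-fold or more, 1 lower by as much and 3 in between. Over all genes compared, 31.3% were higher and 29.5% lower at this threshold, so these counts are near the background. With arrays scaled to spike-in control probes, 2 were higher and 3 lower, where 1510 of all genes were higher and 4391 lower. Under the reported scaling the list's median log2 ratio was 0.16, beside 0.07 over all 9441 genes compared. Axl, the third receptor of the family, had signals of 1728 in the busulphan library and 245 in the control library, 8.15-fold higher. Pros1, which encodes the bridging ligand protein S, had 4672 and 564 in the same order, 9.57-fold higher. Gas6, the ligand common to all TAM receptors, was bright on both arrays at 10184 in the busulphan library and 14520 in the control library, a log2 ratio of -0.30.

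The remaining TAM ligands were mixed. Lgals3, a lectin reported as a Mertk ligand, had a log2 ratio of 0.63. Tub, a phosphoinositide-binding protein also reported to bridge to Mertk, had signals of 253 in the busulphan library and 1758 in the control library, 6.02-fold lower, and its other probe gave -1.83. Its relative Tulp1 had low signals, at 10.6 and 17.1, with a log2 ratio of -0.49. All 3 TAM receptors were thus higher by 8.15-fold or more, while their ligands had ratios in both directions.

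Elmo1 and Bai1, which act together below and beside the TAM receptors, were lower in the busulphan library. The Elmo1 probe had a signal of 98.7 ± 9.96 in the busulphan library and 525 ± 52.6 in the control library. This was a log2 difference of -2.20 (4.60-fold lower), with a software error of 0.21. Both spots were well above background. The gene has only this probe, so no other stretch of the transcript could be compared.

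Bai1 was near the threshold and near the background of the scan. Its brighter probe, at base 6071, had 40.8 ± 4.31 in the busulphan library and 96.7 ± 9.80 in the control library, a log2 difference of -1.04 (2.05-fold lower) with a software error of 0.21. The probe at base 5912 had 18.2 ± 2.26 and 32.3 ± 3.61, a log2 difference of -0.62 (error 0.24), within 2-fold. Both probes were lower, by more than their spot error, but only 1 of the 2 passed 2-fold. The log2 ratio of the gene was -0.86 when arrays were scaled on bright probes alone, -0.83 as the median over its probes, and -0.46 after normexp background correction. In each of these Bai1 kept its direction but lay within 2-fold.

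The relatives and partners of Bai1 and Elmo1 had ratios in both directions. Of 18 listed genes 12 were compared, and 5 were higher, 3 lower and 4 within 2-fold (median log2 ratio 0.27). These counts too are near the shares of 31.3% higher and 29.5% lower over all genes. Spike-in scaling gave 2 higher and 6 lower, in a setting where 1510 of all genes were higher and 4391 lower. The lower genes were Dock2, Rac2 and Adgrb3. Dock2, the ELMO partner typical of blood cells, had signals of 16.6 in the busulphan library and 149 in the control library, 7.78-fold lower. Rac2, the RAC form typical of blood cells, had 57.9 and 479, 7.15-fold lower (-1.66 by a second probe). Adgrb3 (Bai3), a relative of Bai1, was not well above background in the busulphan library, at 4.31 against 47.0 in the control library, and was at least 6.50-fold lower, with its other probe at -0.996.

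Several widely expressed genes of the same module were higher. Rac1, the general RAC form, had signals of 5271 in the busulphan library and 1130 in the control library, 5.39-fold higher, although its other probe gave -0.20. Rhog, a GTPase upstream of ELMO, was 3.82-fold higher, at 653 and 198. The adaptor Crk was 3.18-fold higher by its brightest probe and had a log2 ratio of -2.89 by another. Bcar1, the CRK-binding scaffold also called p130Cas, was 3.08-fold higher, and Gulp1, an adaptor of another engulfment route, 2.06-fold higher. Elmo2, the close relative of Elmo1, had 45.2 in the busulphan library and 87.9 in the control library, a log2 ratio of -0.75. Crkl had -0.95 by its brightest probe and -2.57 and -0.34 by others, Rac3 had 0.65, and Adgrb2 (Bai2) had -0.12 and -0.35.

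Against all genes, the 4 members occupied different parts of the distribution. With a threshold of 2-fold, 31.3% of the 9441 genes compared were higher in the busulphan library and 29.5% were lower. Of the 4 members 2 were higher and 2 lower, Bai1 only just, and with such a background these counts are no result about the members. Their sizes differ. With the 1026 bounds taken at their limits, 107 genes (1.13%) had a higher ratio than Tyro3 and 129 (1.37%) a higher ratio than Mertk. By contrast 1511 genes (16.0%) had a lower ratio than Elmo1 and 2744 (29.1%) a lower ratio than Bai1. True values past the bounds could only add to these counts. These shares describe a pair of libraries.

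**Figure D2:**
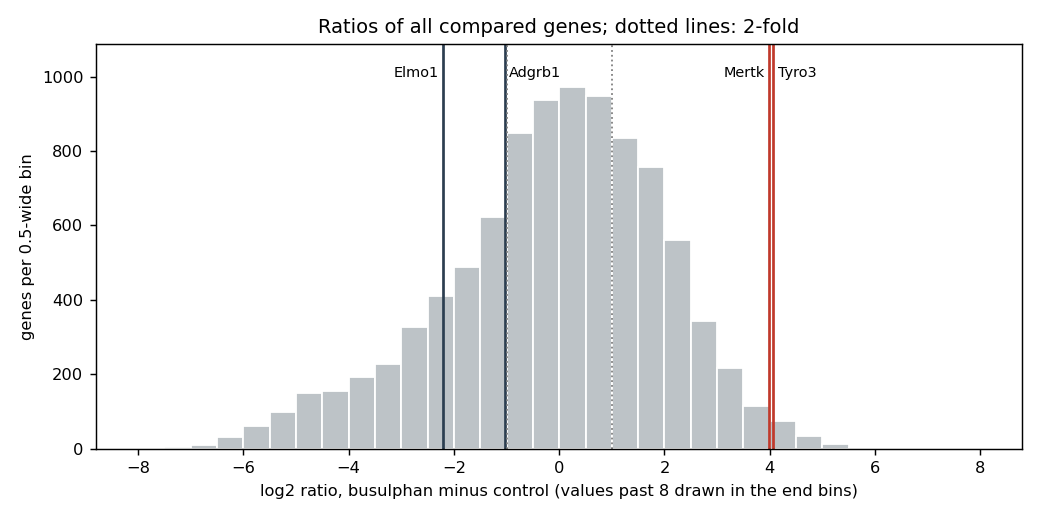
Number of genes per bin of the log2 ratio (busulphan minus control) over the 9441 genes compared, with a vertical line for each of the 4 member genes and dotted lines at 2-fold. Tyro3 (4.07) and Mertk (3.98) lie in the right tail, with at least 1.13% and 1.37% of genes above them. Elmo1 (-2.20) and Adgrb1 (-1.04) lie inside the left side of the distribution.

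The members were set beside the rest of the engulfment pathway, in lists grouped by role. Over all 7 lists, 96 genes were compared, and 52 were higher and 15 lower (median log2 ratio 1.23). The shares over all genes were 31.3% higher and 29.5% lower. When arrays were scaled to spike-in control probes, 39 of the 96 were higher and 29 lower, beside 1510 and 4391 of all genes. The median of the lists was then 0.34, because this scaling lowered the median of all genes to -0.82.

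Of 13 other receptors for dying cells compared, 5 were higher and 3 lower (median -0.03), near the shares of 31.3% and 29.5% over all genes. Spike-in scaling gave 4 higher and 6 lower, beside 1510 higher and 4391 lower over all genes. Itgav, the integrin subunit that pairs with MFGE8 on dying cells, was 9.50-fold higher at signals of 1010.2 in the busulphan library and 123 in the control library, with other probes at 2.83 and 2.48. Olr1, a scavenger receptor for oxidised lipoprotein, had 186 in the busulphan library and was not well above background in the control library, at least 28.7-fold higher. Msr1, a scavenger receptor of macrophages, was 13.3-fold lower, at 36.7 and 562, and Havcr1, a phosphatidylserine receptor of the TIM family, 3.23-fold lower, at 8.54 and 31.9.

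Bridging proteins and opsonins were mostly higher, with 6 of 9 higher, 1 lower and a median of 2.70. The shares over all genes were 31.3% higher and 29.5% lower. Thbs1, a matrix protein that bridges dying cells to integrins and CD36, was 21.6-fold higher, with lower values of 2.04 and 2.43 by its other probes. The complement chain C1qc was 16.3-fold higher. Apoh, a plasma protein that binds phosphatidylserine, was 58.0-fold lower, at signals of 80.2 in the busulphan library and 5380.1 in the control library. Calr, a chaperone that serves as an eat-me signal, had a log2 ratio of 0.23.

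Among 14 genes for signals that dying cells show or release, 7 were higher and 4 lower (median 1.46). With 31.3% of all genes higher and 29.5% lower, the lower count is near the background. Spike-in scaling also gave 7 higher and 4 lower, with a median of 0.57, within 2-fold. The scramblase-family gene Plscr1 was 15.7-fold higher and the sphingosine kinase Sphk1 13.04-fold higher. Ptdss2, which makes phosphatidylserine, was 21.1-fold lower (-4.34 by a second probe), and the flippase Atp11a was 5.50-fold lower.

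Among 18 phagosome maturation genes 9 were higher and 2 lower (median 0.85), beside 31.3% higher and 29.5% lower over all genes. Spike-in scaling gave 6 higher and 5 lower, with a median of -0.04, beside 1510 higher and 4391 lower over all genes. Vps18, a subunit of the tethering complexes of late endosomes, was 7.14-fold higher by its brightest probe, with others at -0.53 and 1.80. Map1lc3b, which is coupled to lipid on phagosomes, was 5.64-fold higher, whereas its relative Map1lc3a was 5.47-fold lower. Atg7, the enzyme that starts this coupling, was 5.94-fold lower, although a dimmer probe gave 1.48. Among 24 genes of lysosomal breakdown and lipid handling 18 were higher and 1 lower (median 2.33), and spike-in scaling gave 13 higher and 4 lower. The protease Lgmn was 20.6-fold and the protective protein Ctsa 8.24-fold higher. Nr1h3, a sterol-sensing nuclear receptor (LXR alpha), was 4.67-fold lower, and Pparg, a lipid-sensing nuclear receptor, had a log2 ratio of -0.54.

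**Figure D3:**
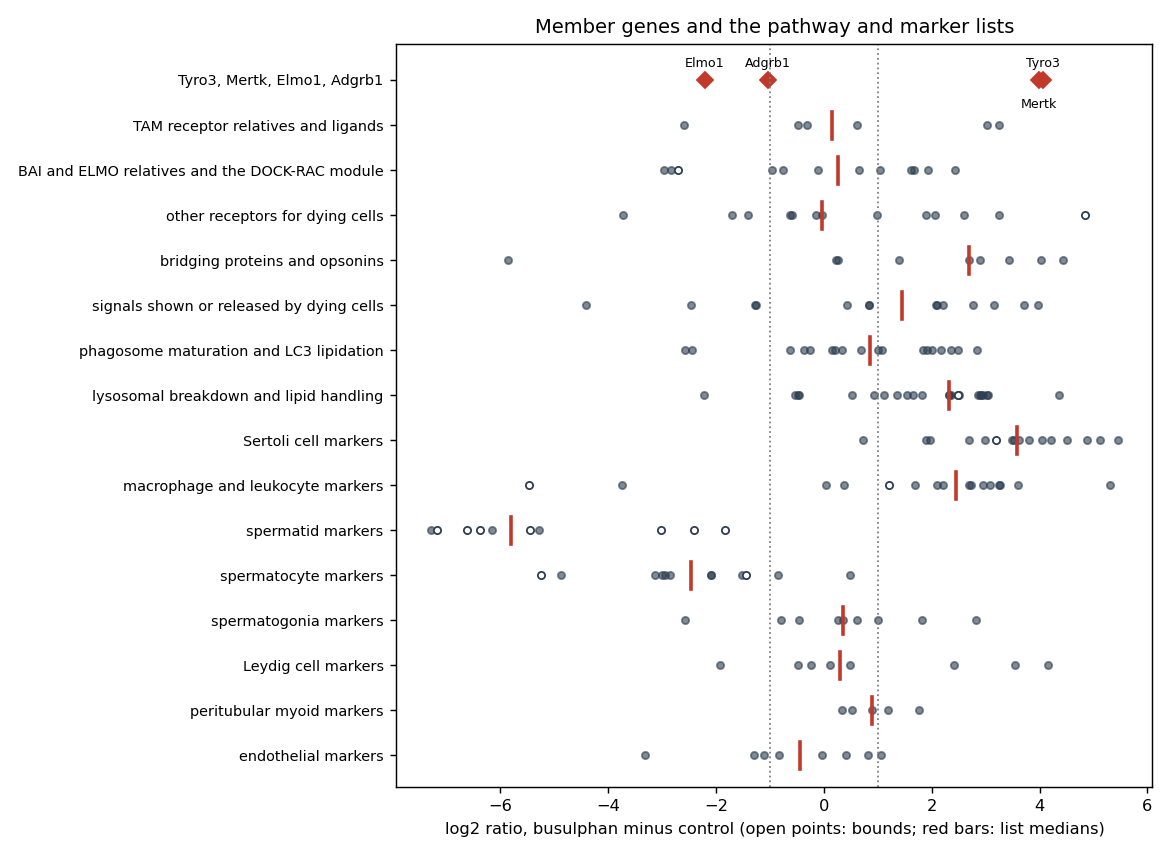
Log2 ratio (busulphan minus control) of the 4 member genes (diamonds, top row) and of every compared gene in the 7 pathway lists and 8 cell type marker lists (points, with open points for bounds and a red bar at each list's median). Tyro3 and Mertk lie to the right of the median of each list, Sertoli cell markers (at least 3.58) included. Elmo1 and Adgrb1 lie to the left of the medians of all lists except those of spermatids and spermatocytes.

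Since the arrays read bulk RNA, a larger share of a cell type and more RNA per cell of that type cannot be told apart. Sertoli cell markers were mostly higher, as were Tyro3 and Mertk. Of 16 compared, 15 were higher and none lower (median log2 ratio at least 3.58), beside 31.3% and 29.5% of all genes. Their summed signal was at least 134 in the busulphan library and 12.3 in the control library, in units of the array's 75th percentile. The busulphan sum is a lower limit because the brightest marker, the largest part of both sums, was saturated in that library. The highest were the transcription factors Sox8 and Sox9, at 5.46 and 5.12, and the lowest was Gata4, also a transcription factor, at 0.73 with another probe at 3.52. Tyro3 and Mertk were at most 0.49 and 0.40 log2 units above this list's median, as the ratio of the saturated marker is a bound. At least 5 and 6 of its 16 genes were above them. Elmo1 and Bai1 were below all 16. The part of the larger Sertoli cell signal in the values of Tyro3 and Mertk was not tested.

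Macrophages also carry Mertk, Axl and Elmo1, and their markers were mostly higher. Of 16 macrophage and leukocyte markers, 12 were higher and 2 lower (median at least 2.45), beside 31.3% higher and 29.5% lower over all genes. The receptors Trem2 and Mrc1 were highest, at 5.30 and 3.61. The lowest were Aif1, saturated in the control library and at most -5.46, and the Fc receptor Fcgr3, at -3.74. Without Aif1 the summed signal of the remaining 15 was 11.2 in the busulphan library and 3.69 in the control library. With it the sums were 12.6 and at least 63.7. Elmo1 had a lower ratio than 14 of these 16 genes and a higher one than Aif1 and Fcgr3. The part of macrophages in the values of the members, Dock2 and Rac2 was not tested.

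Germ cell transcripts were lower. Spermatid markers were lower in 10 of 10 cases, beside 29.5% of all genes, with a median of at most -5.80. Their summed signal was 40.7 in the busulphan library and at least 499 in the control library, since 7 of the 10 were saturated there. The lowest values were -7.29 for Tssk6 and at most -7.18 for Oaz3, though with saturation the true order is not known. The protamine genes Prm1 and Prm2 carried bounds of -1.83 and -2.41. Of 12 spermatocyte markers, 10 were lower and none higher, beside 29.5% and 31.3% of all genes. Their median was at most -2.47, as 2 of the 12 were saturated in the control library. Medians of spermatogonia, Leydig cell, peritubular myoid and endothelial markers were 0.36, 0.30, 0.90 and -0.44. Under spike-in scaling these medians were -0.53, -0.60, 0.01 and -1.33 in the same order, beside -0.82 over all genes. The control library labelled as Sertoli cells thus carried bright germ cell markers. The part of their lower signal in the lower Elmo1 and Bai1 values was not tested.

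Among the listed genes measured on both arrays without saturation, those nearest to each member in log2 ratio were picked as a measure of likeness over the 2 libraries. Nearest to Tyro3 were Dhh, a Sertoli cell ligand, at 4.04 and C1qc at 4.03. Nearest to Mertk were Plscr1 at 3.98 and C1qc. Nearest to Elmo1 were Nr1h3 at -2.22 and the meiotic gene Hormad1 at -2.09, and nearest to Bai1 were the endothelial gene Vwf at -1.10 and Crkl at -0.95. With a single difference per gene, this likeness carries no information on shared control.

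Promoter windows are shown for Tyro3 and Mertk, the members that were higher (log2 ratios of 4.07 and 3.98). Sequences are those of RefSeq on build GRCm38.p6, a later build than the mm9 of the probes, and 3 of the 4 members had an entry (Tyro3, Mertk and Elmo1). The 250 bases before the annotated start are given on the plus strand. Capitals mark the GC box, searched as GGGCGG on both strands. Tyro3 is at chr2:119799264-119799513 and Mertk at chr2:128698665-128698914.
Tyro3 promoter: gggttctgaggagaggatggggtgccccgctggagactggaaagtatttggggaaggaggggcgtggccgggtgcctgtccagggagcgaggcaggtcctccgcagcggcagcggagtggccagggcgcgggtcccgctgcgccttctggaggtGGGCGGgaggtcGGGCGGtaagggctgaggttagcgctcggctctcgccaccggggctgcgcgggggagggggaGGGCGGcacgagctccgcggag
Mertk promoter: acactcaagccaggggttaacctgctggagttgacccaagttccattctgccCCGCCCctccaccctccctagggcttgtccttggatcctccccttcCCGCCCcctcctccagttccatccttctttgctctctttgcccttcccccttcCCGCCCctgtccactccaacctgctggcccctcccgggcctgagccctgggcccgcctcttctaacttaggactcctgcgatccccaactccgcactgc

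Each of these windows held 3 GC boxes, on the strand shown in Tyro3 and on the opposite strand in Mertk. At least 1 GC box is present in 32.7% of the 32851 windows in the table. The Tyro3 window was 73.2% G or C with 24 CpG dinucleotides, and the Mertk window 63.6% with 7. Neither held the SOX core AACAAT on either strand, which occurs in 9.42% of all windows. The E-box CACGTG, found in 6.02% of windows, was likewise missing from both. The same held for the TATA box, searched as TATAAA and found in 12.4% of windows. Nor did either window hold the letters CCAAT, which occur in 33.8% of windows. Elmo1, which was lower, had a pair of windows, one with 3 GC boxes and 1 TATA box and the other with none of these motifs. Which of its starts was used in these cells was not tested. A match of letters describes the window and is not a binding site.

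The ratios of Tyro3, Mertk and Elmo1 kept their direction and stayed past 2-fold under all 12 alternative settings, with ranges of 3.18 to 4.27, 3.09 to 4.16 and -3.09 to -1.69. Bai1 ranged from -1.93 to -0.46 and passed 2-fold under 9 of the 12. Spike-in scaling moved every member down by 0.89, as it did the other genes. Measured from the median of all genes, it left Mertk at 3.91, Elmo1 at -2.27 and Bai1 at -1.11, as the 75th percentile scaling did.

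**Figure D4:**
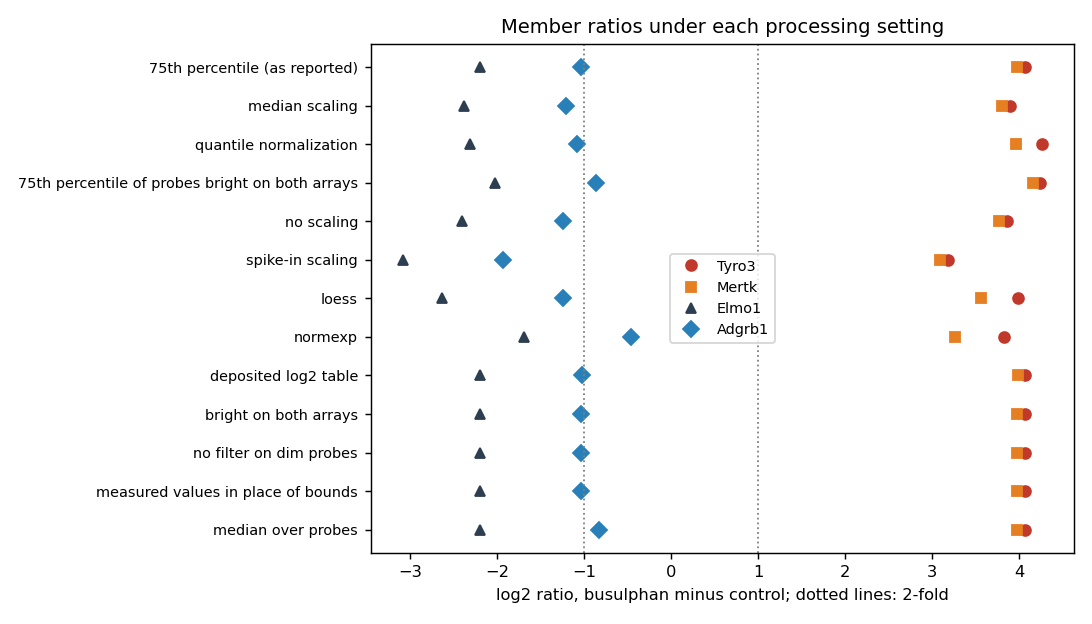
Log2 ratio (busulphan minus control) of the 4 member genes, 1 row per processing setting with the reported setting at the top and dotted lines at 2-fold. Tyro3 and Mertk lie between 3.09 and 4.27 and Elmo1 between -3.09 and -1.69 throughout, and Adgrb1 (Bai1) lies inside the 2-fold line in 3 settings.

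Of the array as a whole, 12064 probes (79.3%) were well above background on the busulphan array and 12302 (80.9%) on the control array, and 18 and 106 were saturated. The 7 member probes were neither saturated nor marked as outliers. Both arrays carry the same scan time in their headers. Group cannot be told apart from preparation, labelling or array. The median SD of log2 signal over 20 replicate spots of 6 spike-in probes was 0.06, and the number of arrays limits the precision.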

How the data were processed

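Total RNA was labelled with Cy3 and hybridised to Agilent arrays, 1 per group. Per the file headers, Agilent Feature Extraction 11.5.1.1 produced the deposited intensity values, with background subtraction, detrending over the array and surrogates for dim spots. The deposited log2 table equals log2 of that signal minus a constant, 9.82 for busulphan and 10.03 for control, close to each array's 75th percentile (9.82 and 10.03), with medians of -2.77 and -2.94; genes were not centred. The deposited well-above-background and saturation flags (other, 0 or 1) were used as given.

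Values here are log2 signal minus each array's 75th percentile over 15208 non-control probes (signals of 905 and 1046). The 4 probes marked as outliers were left out, and 12852 probes well above background on at least 1 array and not saturated on both were kept. A gene took its brightest probe. A probe dim on 1 array, or saturated on 1, gives a bound (1026 genes), and 8 genes whose bound pointed the other way were set to 0. Names came from accessions through a GRCm38.p6 table for 13300 probes. A gene was called by size, at least 2-fold either way. The rule for named genes takes the 4 members, all measured relatives and partners, the 2 highest and 2 lowest of the other pathway lists and of the Sertoli, macrophage and spermatid lists, and the 2 nearest genes to each member. Of these, 1 gene is not reported here. The members, lists and rule were chosen with earlier results of these data known, and the motifs after the values were seen. The calls were tested on simulated data. Tools were Python 3.11.15, pandas 2.3.3, statsmodels 0.14.6 and limma 3.58.1 (normexp, offset 50).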

Additional observations from a re-analysis of the deposited data

How the results depend on the processing

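With 1 array per group, no array could be left out, and spot error is the only error. No paired analysis was possible because each group has a single array. Ratios of all 4 member genes kept their sign under the 12 alternatives, and counts were also taken at 1.5-fold and 4-fold. Moves larger than the spot error were as follows, and their causes were not tested. Spike-in scaling and no scaling shift all genes alike, whereas loess, quantile normalization and normexp do not. Spike-in scaling gave Tyro3 3.18, Mertk 3.09, Elmo1 -3.09 and Adgrb1 -1.93, with 1510 genes higher and 4391 lower (25.6% of called genes higher, against 51.5% as reported), and 29 of the pathway genes lower and 39 higher, with a median of 0.34. Without scaling, Tyro3 was at 3.86, Mertk 3.77 and Elmo1 -2.41, with a pathway median of 1.02. Loess gave Mertk 3.56, Elmo1 -2.64 and Adgrb1 -1.25, and quantile normalization gave Tyro3 4.27. Normexp gave Tyro3 3.83, Mertk 3.26, Elmo1 -1.69 and Adgrb1 -0.46, below 2-fold. The threshold of 4-fold left 1360 genes higher and 1674 lower, against 2952 and 2784 at 2-fold. The medians of the TAM relatives (-0.73 to 0.46), the DOCK-RAC module (-0.62 to 0.65), the other receptors (-0.92 to 0.15), phagosome maturation (-0.04 to 1.04), spermatogonia markers (-0.53 to 0.65) and Leydig cell markers (-0.60 to 0.47) lay on either side of 0 over these settings. Of the further values, for probes and single lists, 568 stayed within a limit and 120 moved by more. The limit was the median spot error of all genes (0.20) for probe ratios and list medians, and 1.5 times for counts. Low signal limits Bai1 and the Tyro3 probe at base 465, whose log2 difference ranged from 1.00 to 4.09.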
